A study of Mus musculus with 2 samples.

Results

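The circadian clock genes studied here are 10 genes taken by symbol from a table of counts per gene in mouse ovary, which holds 24421 rows in all. They are the activators Arntl (also known as Bmal1) and Clock, the repressors Per1, Per2, Per3, Cry1 and Cry2, the nuclear receptors Nr1d1 and Nr1d2, and the output gene Dbp, and all 10 were found. Because many clock transcripts follow the hour of the day, the 10 genes were chosen as a possible check on when the tissue was taken. The hour of collection is not known here, so no such check could be made. The series compared whole ovaries of wild-type C57BL/6J mice with those of H19KO mice labelled with the same strain, to find ovarian genes that depend on the imprinted long noncoding RNA H19. The knockout carries the allele named H19(Δ3), a germline deletion and not one limited to a cell type. Both genotypes were 8 weeks old, received no treatment and were housed in 12 h of light and 12 h of dark. There was 1 library per genotype, of 23335131 counts for the wild type and 23041225 for H19KO. The sources used here give neither the number of animals behind each library nor the hour of collection or the stage of the oestrous cycle. Hour, cycle stage, individual animal and genotype therefore cannot be told apart in what follows, and no p-value can be given. Every interval below is an exact 95% interval that covers counting error only, so it says nothing of the spread between mice.

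In mouse cells the clock is a feedback loop of transcription. The proteins of Arntl and Clock pair up and bind E-box elements in the Per and Cry genes, in Nr1d1 and Nr1d2, and in Dbp. The PER and CRY proteins then enter the nucleus and inhibit that pair, while the Nr1d1 and Nr1d2 proteins (REV-ERB alpha and beta) repress Arntl through elements called ROREs. As a result Arntl transcripts peak at a time of day when those of Nr1d1, Dbp and the Per genes are low. In the ovary the loop runs in granulosa, theca and luteal cells, and it is known for its link to the timing of ovulation and to steroid synthesis.

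The elements of this loop can be read in the promoters, which are shown here as background. Their part in the differences described below was not tested. RefSeq windows on GRCm38.p6, from 250 bases before to 50 after a start site, were at hand for 9 of the 10 genes, 13 windows in all. The gene without a window was Per2, so its promoter was not searched. Each was searched on both strands, so that a match can appear below as its reverse complement. The letters searched were CACGTG for the E-box and CACGTT for the E-prime box, its close variant. The D-box, bound by Dbp and its relatives, was searched as TTATGTAA and as TTACGTAA. The core of the RORE was searched as TAGGTCA, and the cAMP response element as TGACGTCA. No match overlapped another. Of 32851 windows genome-wide, 7.15% held the E-box, 4.68% the E-prime box, 1.06% the D-box, 2.61% the RORE core and 1.79% the cAMP response element. Per1, Cry1, Cry2, Nr1d1, Per3 and Arntl each had a window with a match, and the other window of Per1 and that of Arntl held none. Cry1 held both an E-box, 60 bases before its start, and an E-prime box at 79 bases before it. Per1 held an E-box 166 bases before the start, Cry2 an E-prime box at the same distance of 166, and Nr1d1 an E-prime box at 28. Per3 held a pair of D-boxes, at 205 and 158 bases before the start. In Arntl the RORE core began 31 bases into the transcript of the start site at 113207511. The windows of Clock, Nr1d2 and Dbp held none of these letters, which says nothing of elements farther away. The 250 bases before the start are printed 5′ to 3′ on the gene's own strand, with matches in capitals, and for Arntl 30 bases around the RORE core.
Per1, chr11:69098699-69098948, plus strand: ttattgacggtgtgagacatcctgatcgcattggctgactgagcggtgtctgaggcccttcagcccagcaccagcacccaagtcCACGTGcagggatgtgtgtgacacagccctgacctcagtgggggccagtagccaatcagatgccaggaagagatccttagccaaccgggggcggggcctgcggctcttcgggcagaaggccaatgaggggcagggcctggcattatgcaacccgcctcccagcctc
Cry1, chr10:85185055-85185304, minus strand: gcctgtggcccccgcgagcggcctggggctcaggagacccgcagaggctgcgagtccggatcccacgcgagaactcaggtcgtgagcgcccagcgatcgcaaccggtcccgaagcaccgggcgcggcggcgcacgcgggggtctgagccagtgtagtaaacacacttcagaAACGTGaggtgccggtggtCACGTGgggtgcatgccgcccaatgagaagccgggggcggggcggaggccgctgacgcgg
Cry2, chr2:92434070-92434319, minus strand: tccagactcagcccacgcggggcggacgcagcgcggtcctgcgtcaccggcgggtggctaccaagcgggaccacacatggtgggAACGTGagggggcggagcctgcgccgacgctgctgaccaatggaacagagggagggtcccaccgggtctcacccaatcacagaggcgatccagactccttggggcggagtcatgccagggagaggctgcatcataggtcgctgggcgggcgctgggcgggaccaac
Per3, chr4:151044666-151044915, minus strand: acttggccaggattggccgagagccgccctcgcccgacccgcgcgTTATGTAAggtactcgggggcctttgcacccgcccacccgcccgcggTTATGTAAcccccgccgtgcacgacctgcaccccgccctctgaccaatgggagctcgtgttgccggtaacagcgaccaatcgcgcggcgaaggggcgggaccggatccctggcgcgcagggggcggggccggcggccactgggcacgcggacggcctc
Nr1d1, chr11:98775378-98775627, minus strand: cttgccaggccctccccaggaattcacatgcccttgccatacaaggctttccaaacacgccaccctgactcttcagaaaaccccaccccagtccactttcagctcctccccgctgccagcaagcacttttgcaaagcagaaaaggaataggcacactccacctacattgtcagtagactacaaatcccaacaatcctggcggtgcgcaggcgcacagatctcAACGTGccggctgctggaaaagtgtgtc
Arntl, chr7:113207530-113207559, plus strand: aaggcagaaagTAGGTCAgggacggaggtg

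H19 itself was counted 672 times in the wild-type library and 0 times in H19KO. Allowing 3 counts for a count of 0, the H19KO library was at least 223-fold lower, which is what its label states.

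The activators were the 2 clock genes with a higher value in the H19KO library whose intervals lay above 0. Arntl (mm10 chromosome 7, 113207465 to 113314126, plus strand) encodes the partner that the clock cannot run without. Its 691 counts in the wild type correspond to 29.7 CPM, which are counts per 1000000 of the library total after its TMM scaling, and its 962 counts in H19KO to 41.6 CPM. The H19KO library was the higher by 1.40-fold (1.27 to 1.55), a log2 ratio of 0.49 (0.34 to 0.63). In all, 13928 genes averaged 1 CPM or more, and 6.39% of them had a log2 ratio at least as high as that of Arntl. Clock (chromosome 5, 76209868 to 76304792, minus strand), which encodes its DNA-binding partner, had 4569 and 5027 counts, or 196 CPM in the wild type and 217 in H19KO. Its log2 ratio was 0.15 (0.09 to 0.20), and 24.5% of genes had a ratio at least as high, so ratios as high as that of Clock were common.

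The Per genes encode repressors of the activator pair, and 2 of the 3 were lower in H19KO. Per2 (chromosome 1, 91415982 to 91459324, minus strand) was counted 782 times in the wild type and 501 times in H19KO, which is 33.6 and 21.7 CPM. The H19KO value was 0.644 of the wild-type value (0.575 to 0.722), a log2 ratio of -0.63 (-0.80 to -0.47). This was the largest difference among the 10 genes, and 2.87% of all measured genes had a ratio as low or lower. Per1 (chromosome 11, 69095217 to 69109960, plus strand), which is also quickly induced by light, cAMP and glucocorticoid signals, had 1139 and 896 counts, or 49.0 and 38.7 CPM. Its log2 ratio was -0.34 (-0.47 to -0.21), and 10.1% of genes lay as low or lower. Per3 (chromosome 4, 151003652 to 151044665, minus strand), which is dispensable for the core rhythm, had 678 and 662 counts. The libraries were close in Per3, with 29.2 and 28.6 CPM and a log2 ratio of -0.03 (-0.18 to 0.13). The 3 paralogues therefore did not differ by the same amount. Relative to Per3 in the same library, Per2 was lower in H19KO by a log2 change of -0.61 (-0.84 to -0.38) and Per1 by -0.31 (-0.51 to -0.11). Relative to Per1, Per2 was lower by -0.30 (-0.51 to -0.09). Per base of exon, Per2 made up 32.9% of the summed Per level in the wild type and 27.3% in H19KO, while Per3 went from 17.4% to 22.0% and Per1 from 49.8% to 50.7%. These shares rest on the union of annotated exons, which is 9608 bases for Per3 against 5999 in its longest transcript. Another length would change them, and none was tried for the shares.

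**Figure D1:**
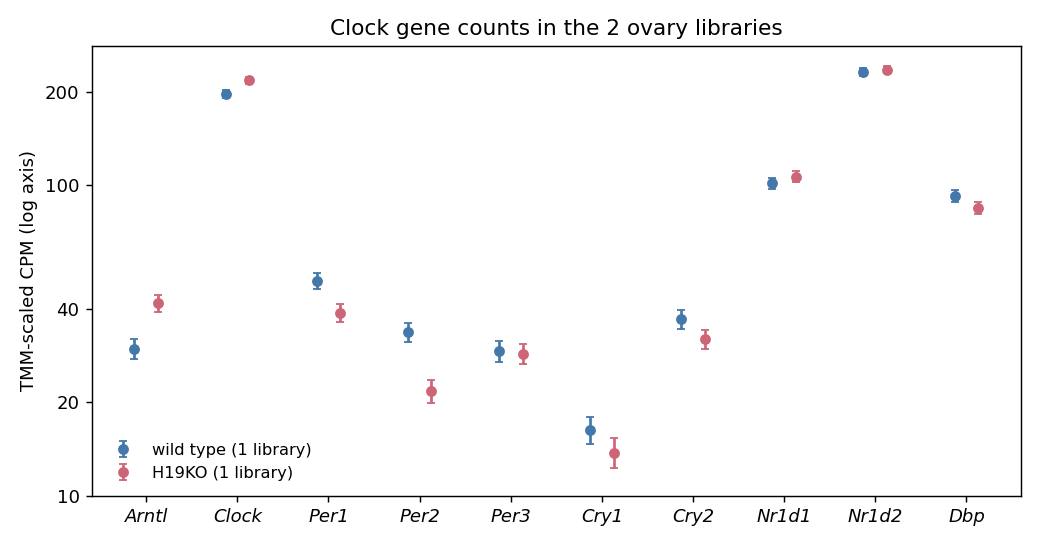
TMM-scaled CPM (log axis) of the 10 clock genes in the wild-type and H19KO libraries, 1 point per library with its exact 95% Poisson interval for counting error. Arntl is higher in H19KO (29.7 and 41.6 CPM), Per2 and Per1 are lower, and the intervals of Per3, Cry1, Nr1d1 and Nr1d2 overlap between the libraries.

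The cryptochromes encode the stronger repressors of the loop, and both were lower in H19KO by a small and similar amount. Cry1 (chromosome 10, 85131700 to 85185064, minus strand) was counted 377 times in the wild type and 317 times in H19KO, giving 16.2 and 13.7 CPM. Its log2 ratio was -0.24 (-0.46 to -0.02), an interval that ends close to 0 because Cry1 had the fewest counts of the 10 genes. Cry2 (chromosome 2, 92403646 to 92434043, minus strand) had 859 and 736 counts, giving 36.9 and 31.8 CPM and a ratio of -0.21 on the log2 scale (-0.36 to -0.07). The ratio of Cry1 to Cry2 within a library was nearly equal, at 0.439 in the wild type and 0.431 in H19KO by counts, a log2 change of -0.03 (-0.29 to 0.24). Values as low as these were common in the table, since 16.7% of genes had a ratio at or below that of Cry1 and 19.2% at or below that of Cry2.

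The REV-ERB genes, which carry the repression of Arntl, hardly differed between the libraries. Nr1d1 (chromosome 11, 98767932 to 98775333, minus strand) had 2360 and 2462 counts, or 101 CPM in the wild type and 106 in H19KO. Its log2 ratio was 0.07 (-0.01 to 0.15). Nr1d2 (chromosome 14, 18204054 to 18239127, minus strand) had 5372 and 5441 counts, giving 231 and 235 CPM and a ratio of 0.03 on the log2 scale (-0.03 to 0.08). Both intervals held 0 and ended well short of a 1.5-fold difference, which is 0.585 on the log2 scale. Neither gene had a lower value in the H19KO library, where Arntl was higher, and a link between these values was not tested. Nr1d1 overlaps the thyroid hormone receptor gene Thra on the opposite strand, by 263 exonic bases or 8.55% of its exon length. Whether the counting used strand is not known here, so reads there cannot be assigned, but Thra was also nearly equal, with 2934 and 2902 counts.

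Dbp, a transcription factor gene driven directly by the activator pair and one of the most strongly rhythmic transcripts in mouse tissues, was slightly lower in H19KO. Dbp (chromosome 7, 45705088 to 45710203, plus strand) was counted 2148 times in the wild type and 1955 times in H19KO, giving 92.4 and 84.5 CPM. Its log2 ratio was -0.13 (-0.22 to -0.04), and 29.9% of genes lay as low or lower. Dbp shares 539 exonic bases, or 18.0% of its exon length, with the sphingosine kinase gene Sphk2 on the opposite strand. Sphk2 was lower as well, with 1128 and 903 counts, and reads in the shared stretch cannot be assigned to either gene.

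Across the 10 clock genes the differences were below 2-fold, and most had a counting interval that left out 0. None of the 10 had an interval wholly beyond 1.5-fold, against 1.80% of the 13928 genes on the higher side and 1.21% on the lower. None lay beyond 2-fold either, where the shares of all genes were 0.610% higher and 0.388% lower. An interval above 0 was found for 2 of the 10 (Arntl and Clock), where 22.2% of all genes had one, and an interval below 0 for 5 (Per1, Per2, Cry1, Cry2 and Dbp), where 24.0% had one. The intervals of the other 3 (Per3, Nr1d1 and Nr1d2) held 0, as did those of 53.8% of all genes. Intervals narrow as counts rise, and the clock genes averaged from 15.0 CPM (Cry1) to 233 CPM (Nr1d2). The shares of all genes include genes down to 1 CPM, so they are not matched for abundance. A larger part of the clock genes with intervals that leave out 0 is therefore not an excess of differences. The same limit holds for the lists and markers below. The median log2 ratio was -0.08 over the 10 genes and -0.01 over all genes, and the median size regardless of sign was 0.18 and 0.15. By the point ratio alone, Per2 was past 1.5-fold on the lower side, where 3.63% of all genes were, and no clock gene on the higher side, where 4.54% were. The intervals of the 10 genes were 0.109 (Nr1d2) to 0.439 (Cry1) log2 units wide.

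**Figure D2:**
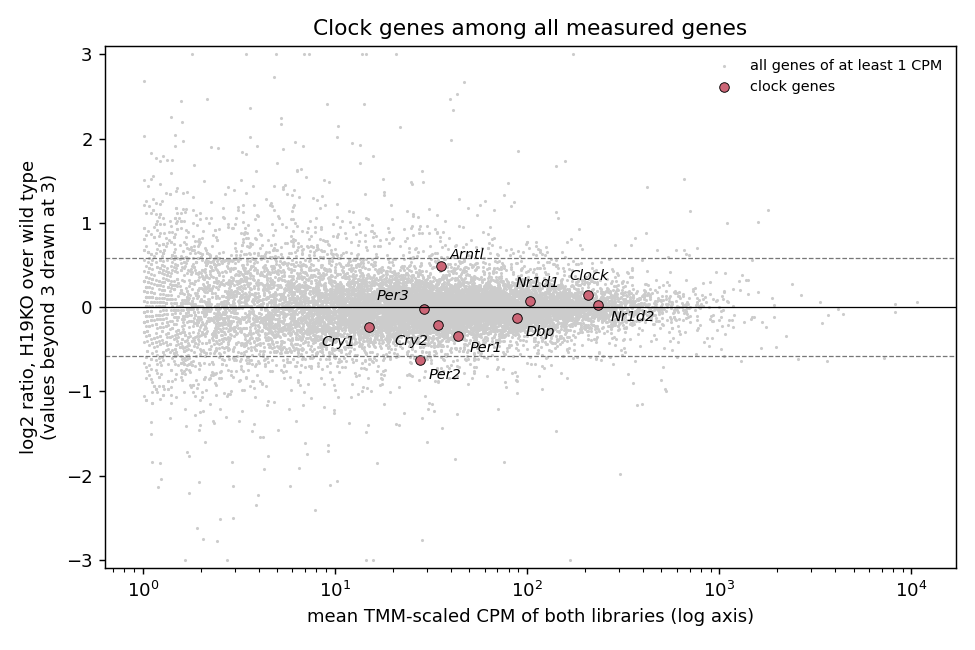
Log2 ratio of H19KO over wild type against the mean TMM-scaled CPM (log axis) for all 13928 genes of at least 1 CPM (grey) and the 10 clock genes (red), with dashed lines at 1.5-fold. The clock genes lie inside the grey cloud, with Arntl (0.49) near the upper and Per2 (-0.63) just past the lower dashed line.

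The balance between repressors and activators can be read inside each library, without any scaling between libraries. For each Arntl count the wild-type library held 1.13 Per2 counts and the H19KO library 0.521, a log2 change of -1.12 (-1.34 to -0.90). For Per1 the ratio to Arntl was 1.65 in the wild type and 0.931 in H19KO, a change of -0.82 (-1.02 to -0.63). The changes for Cry1, Cry2 and Per3 were -0.73 (-0.99 to -0.46), -0.70 (-0.90 to -0.50) and -0.51 (-0.72 to -0.30). Dbp had 3.11 counts per Arntl count in the wild type and 2.03 in H19KO, a change of -0.61 (-0.78 to -0.44). Nr1d1 and Nr1d2 changed by -0.42 (-0.58 to -0.25) and -0.46 (-0.61 to -0.31) relative to Arntl, although their own levels were nearly equal. All 9 of these intervals lie below 0, but they share the Arntl counts, so they are not 9 separate observations. Arntl also had the highest log2 ratio of the clock genes, so a change below 0 for every other gene follows from that choice of reference. With Clock as the common reference, the changes were smaller and 7 of 9 intervals lay below 0. Clock had the next highest log2 ratio, so changes below 0 for all genes but Arntl again follow from the choice. Per2 was at -0.78 (-0.96 to -0.61) and Per1 at -0.48 (-0.62 to -0.34), Per3 at -0.17 only just below 0, and Nr1d1 at -0.08 (-0.18 to 0.02) held 0. Arntl itself was higher relative to Clock, by 0.34 (0.19 to 0.49).

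**Figure D3:**
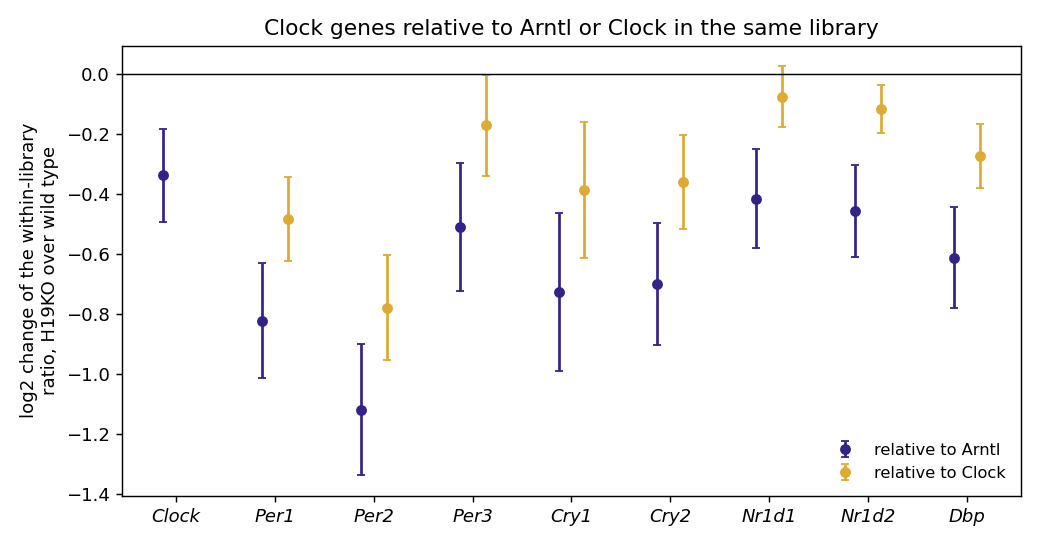
Log2 change, from wild type to H19KO, of the within-library count ratio of the other clock genes to Arntl (blue) and, without Arntl, to Clock (yellow), with exact 95% intervals for counting error; 1 library per genotype. All points drawn lie below 0, with Per2 lowest at -1.12 and -0.78, and Nr1d1 relative to Clock is the one interval that holds 0. Arntl and Clock had the highest log2 ratios of the clock genes, so points below 0 follow from that choice of references.

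Levels of different genes can be set side by side only per length of exon. In CPM per kilobase of exon, Nr1d2 was the most abundant of the 10 in both libraries (42.7 in the wild type and 43.5 in H19KO). Nr1d1 (33.0 and 34.6), Dbp (30.9 and 28.2) and Clock (14.3 and 15.8) followed in both, and Per1 (8.70 and 6.88) came next. Nr1d1 and Dbp had overlapping counting intervals in the wild type and not in H19KO. At the low end the order differed between the libraries. In the wild type Cry2 (5.85) and Per2 (5.74) had overlapping counting intervals, as did Per2 and Cry1 (4.85), but not Cry2 and Cry1, and all 3 stood above Arntl (3.95) and Per3 (3.03). In H19KO Arntl (5.53) stood next to Cry2 (5.04), within counting error, and above Cry1 (4.10), Per2 (3.70) and Per3 (2.98). The length used was the union of all annotated exons. With the longest transcript instead, the mean level of Arntl over both libraries moved from 4.74 to 8.93, that of Dbp from 29.6 to 48.2, that of Per3 from 3.01 to 4.82 and that of Cry2 from 5.44 to 8.65, so the order between genes rests on that choice while the comparison of libraries does not.

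The genes around the core loop had log2 ratios from -1.41 (Arntl2) to 0.59, where the 10 clock genes ran from -0.63 to 0.49. The list held 37 further genes (paralogues, competing receptors, kinases, ubiquitin ligases and cofactors), all of at least 1 CPM. Of them, 1 had an interval beyond 1.5-fold on the lower side and none on the higher, again beside 1.21% and 1.80% of all genes. That gene was Arntl2, a paralogue of Arntl of low abundance, with a wild-type count of 57, an H19KO count of 21 and a log2 ratio of -1.41 (-2.23 to -0.69). Arntl2 and Arntl thus pointed in opposite directions. Intervals lay above 0 for 8 of the 37, below 0 for 16 and across 0 for 13, where the shares of all genes were 22.2%, 24.0% and 53.8%. The median log2 ratio was -0.04, and -0.01 over all genes. The 8 most abundant genes had log2 ratios between -0.23 (Sfpq) and 0.28 (Nampt). The scaffold gene Gnb2l1 (Rack1) had a log2 ratio of -0.15 (-0.18 to -0.12), and Nono and Sfpq, RNA-binding partners of PER, had 0.02 (-0.01 to 0.05) and -0.23 (-0.28 to -0.18). Ddb1 and Cul4a, parts of a ubiquitin ligase, had 0.03 and 0.05, the corepressor gene Ncor1, which REV-ERB proteins recruit, -0.04, and the kinase gene Gsk3b -0.09. Nampt, the rate-limiting enzyme gene of NAD salvage and a target of the activator pair, had 4054 and 4899 counts and was at 0.28 (0.22 to 0.34).

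Some further genes of this list are named for their place in the loop, and were chosen after their values were seen. Npas2, which can stand in for Clock, had 131 and 173 counts, with its log2 ratio at 0.41 (0.07 to 0.75). Rora, the activator that competes with the REV-ERB proteins at ROREs, had 3872 and 4468 counts, or 0.21 (0.15 to 0.28). Among the relatives of Dbp that act at D-boxes, Tef had 3086 and 2496 counts, or -0.30 (-0.37 to -0.22), and Hlf 505 and 467, or -0.10 (-0.29 to 0.08). Nfil3, which opposes them at the same element, had 245 and 296 counts, or 0.28 (0.03 to 0.53). The E-box repressors Bhlhe40 and Bhlhe41 pointed in opposite directions, at 0.27 (0.16 to 0.37) and -0.22 (-0.41 to -0.02). Ciart, another repressor of the activator pair, had 137 and 95 counts, or -0.52 (-0.91 to -0.13). Csnk1e, a kinase gene for PER proteins, was at -0.23 (-0.32 to -0.14), while its paralogue Csnk1d was at 0.02 (-0.07 to 0.10).

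**Figure D4:**
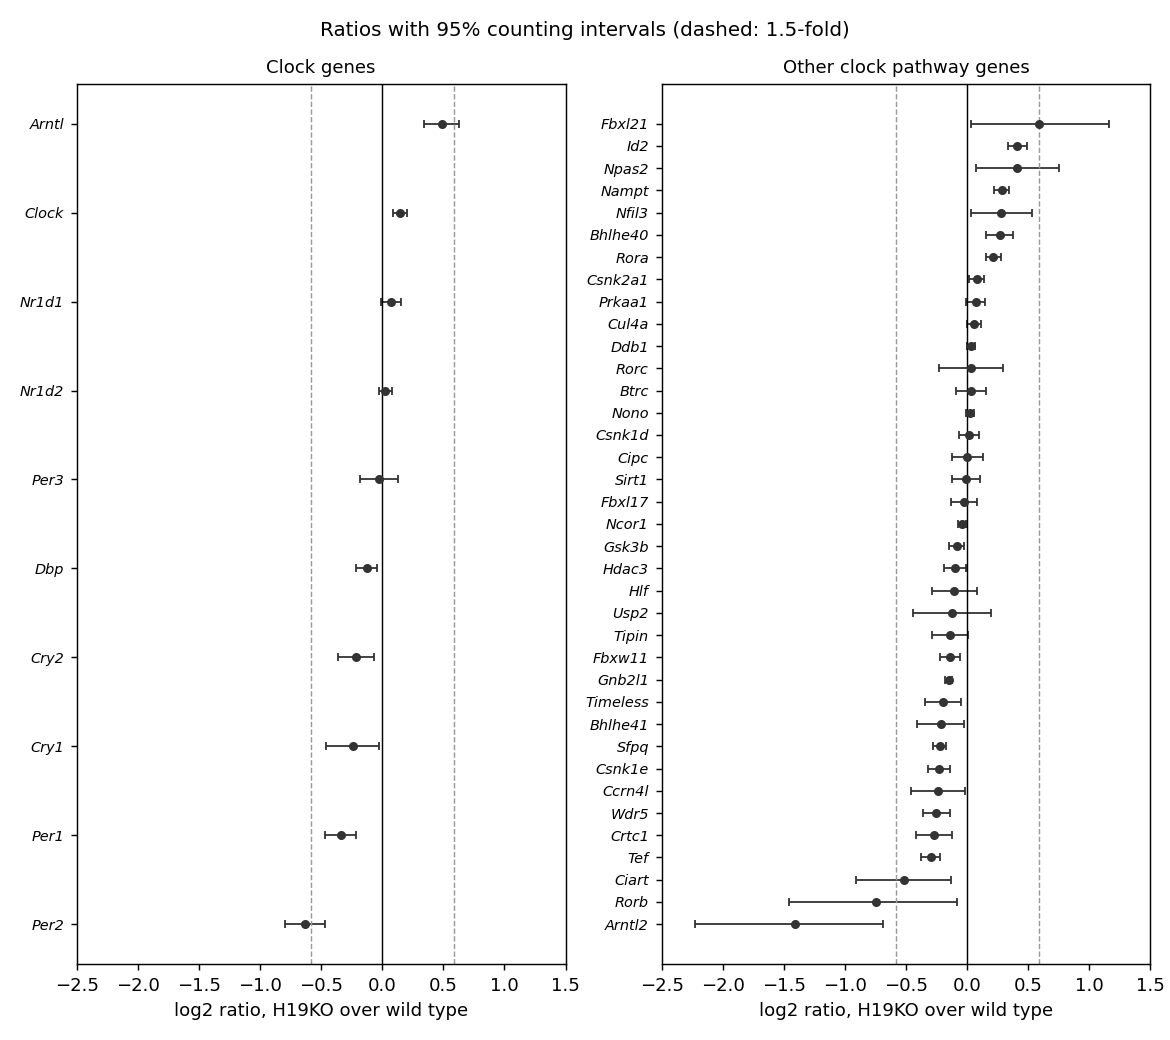
Log2 ratio of H19KO over wild type with exact 95% counting intervals for the 10 clock genes (left) and 37 other clock pathway genes (right), ordered by ratio, with dashed lines at 1.5-fold. Arntl is the highest and Per2 the lowest of the clock genes, and Arntl2 (-1.41) is the one gene whose whole interval lies past a dashed line.

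Further lists held genes that are rhythmic in many mouse tissues, or that follow daily hormone or temperature signals. Their counts are to be read beside the shares of all genes, 22.2% with an interval above 0, 24.0% below and 53.8% across it, 1.80% and 1.21% beyond 1.5-fold on the higher and the lower side, and the median of -0.01. Of 20 rhythmic output genes 17 were measured, and 3 had an interval above 0, 9 below it and 5 across it. None lay beyond 1.5-fold, and the median log2 ratio was -0.16. This list overlaps others, so its counts are not separate from theirs. Per1 is a clock gene, and Nampt, Tef, Hlf, Ciart and Usp2 are also in the pathway list. Tsc22d3 and Cdkn1a are also in the glucocorticoid list that follows. Besides Nampt and Tef, the electron donor gene Por was at 0.27 (0.21 to 0.33), the transcription elongation gene Leo1 at -0.16, Coq10b, which acts in coenzyme Q function, at -0.46 (-0.63 to -0.28) and the mitotic inhibitor kinase gene Wee1 at -0.42 (-0.63 to -0.22). Of 13 genes induced by glucocorticoid, which follows a daily rhythm in blood, 5 had an interval above 0 and 8 below, 2 lay beyond 1.5-fold on each side, the median was -0.18, and Per1 belongs to this list too. They did not share a direction. The metallothionein genes Mt1 and Mt2 had log2 ratios of 0.88 (0.83 to 0.92) and 1.14 (0.96 to 1.33), and Klf9 0.23, whereas Ddit4 had -0.83, Zbtb16 -0.85 (-1.06 to -0.64), Sgk1 -0.40 and the most abundant, Fkbp5, -0.14 (-0.17 to -0.11). Of 9 genes linked to body temperature, 3 had an interval above 0 and 5 below, 1 (Hspa1a) lay beyond 1.5-fold on the higher side, and the median was -0.12. The cold-inducible genes Cirbp and Rbm3 were at 0.39 (0.23 to 0.55) and 0.34 (0.26 to 0.42), and the heat shock genes Hsp90aa1, Hsph1 and Hspa8 at -0.30, -0.20 and -0.19. Hspa1a was at 0.81 (0.60 to 1.01) and its near-identical copy Hspa1b at 0.01, so the split of reads between them is uncertain.

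The clock runs in several ovarian cell types whose markers also differed between the libraries, and in whole tissue fewer cells of a type and less RNA per cell cannot be told apart. Of 29 marker genes in 11 classes, 7 had an interval above 0, 17 below and 5 across it, beside 22.2%, 24.0% and 53.8% of all genes, and none had a count of 0 in either library. Summed levels of the 5 granulosa markers were 1372 CPM in the wild type and 953 in H19KO, of the 3 theca markers 1150 and 591, and of the 4 oocyte markers 144 and 116. Inha (1194 and 847 CPM) made up most of the granulosa sum. The theca sum was Lhcgr (667 and 468 CPM) and Cyp17a1 (484 and 123), since Insl3 had 1 and 2 counts. Lhcgr is not limited to theca cells, so this sum is not a reading of theca alone. Within these classes, Cyp17a1 (theca) had a log2 ratio of -1.98 and Cyp19a1 (granulosa) of -1.60, both beyond 2-fold. The 3 luteal markers, the most abundant class, summed to 6439 and 6409 CPM, with Ptgfr at -0.46, Star at 0.11 and Cyp11a1, which makes up most of the sum, at -0.02. Smooth muscle markers summed to 1134 and 1438, macrophage markers to 207 and 284, and endothelial markers to 333 and 270. Markers of tissue outside the ovary were low, with the oviduct pair at 1.89 and 5.92 CPM and adipocyte markers at 14.9 and 11.1. Lymphocyte markers were at 1.72 and 0.822 CPM and the neuronal gene Snap25 at 0.387 and 0.0432. The oviduct pair did not share a direction. Ovgp1 stood higher in H19KO (33 and 134 counts), by 2.01 log2 units (1.47 to 2.63), an interval wholly beyond 2-fold. Foxj1 went the other way on few counts (11 and 3), and its interval held 0. Plin1 (14.7 and 10.9 CPM) made up most of the adipocyte sum. The part of these marker values in those of Arntl, Per1, Per2 and the other clock genes was not tested.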

How the data were processed

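RNA of whole ovaries was depleted of ribosomal RNA and made into stranded paired-end libraries, per the labels' protocols, 1 library per genotype. The authors deposited whole-number counts for each gene symbol. Tools named in the submitters' processing notes are DESeq2 1.0.0, Cufflinks 2.2.1 and STAR 2.5.0a, with the mm10 build and with no roles. Which tool counted, on which annotation and with which strand setting, is not given in the sources used here. The median-of-ratios size factors of the columns were equal, with a ratio of 1, which earlier scaling would also give. Scaling whole reads upwards leaves gaps, but every whole number below 527 occurred in the wild type and every one below 937 in H19KO. Rounded scaling of values that were not whole would not show, and the intervals would then be slightly off.

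TMM factors came from edgeR 4.0.16. For log2 ratios, 0.5 was added to each scaled count. Intervals are exact conditional binomial (Clopper-Pearson) for ratios between libraries, exact conditional odds ratio intervals for ratios within libraries, and exact Poisson for levels. Intervals and the floor of 3 counts (0.129 CPM in the wild type, 0.130 in H19KO) cover counting error only, and take each count as an independent molecule. PCR copies are not independent molecules, so where copies were counted the intervals are too narrow even for counting error. Genes of at least 1 CPM on average were compared, and a gene was counted when its interval lay beyond 1.5-fold, a rule of size and not a test. Scripts were tested on simulated data. Coordinates and exon lengths are from GENCODE M21 on the same build; 27 rows that carry dates in place of symbols stayed in the totals.

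The members and gene lists were chosen with earlier results of these data known. A gene of the pathway list is not reported here and was left out of that list. Named were all 10 members, H19, genes that overlap a member, pathway genes beyond 1.5-fold and the 8 most abundant, and from each other list up to 4 of the most abundant and up to 4 with the nearer interval bound farthest from 0. Within-family ratios were added after the data were seen. Alternatives were other scalings, limits and filters, 5 added to each count, Clock as reference and transcript length. Size factors came from DESeq2 1.42.0 in R 4.3.3, intervals from scipy 1.17.1 in Python 3.11.15 with pandas 2.3.3 and numpy 2.4.6, and plots from matplotlib 3.10.9.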

Additional observations from a re-analysis of the deposited data

How the results depend on the processing

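Under total count scaling, median-of-ratios scaling, totals without the 10 most abundant genes, and 5 added to each count, all 40 values of the 10 clock gene ratios stayed inside their counting intervals with the same sign where the interval left out 0. The H19 bound stayed inside its counting interval under the first and second of these. Counts of genes follow the rule by construction. With the point ratio, 1 clock gene was past 1.5-fold on the lower side, and 1 pathway gene was higher and 2 lower. With intervals that leave out 0, 2 clock genes were higher and 5 lower, and 8 pathway genes were higher and 16 lower. The pathway gene beyond 1.5-fold, Arntl2, was lost (0 genes) at the 2-fold limit and with a minimum of 5 CPM. The other scalings and no filter left these counts as they were. With Clock in place of Arntl as reference, the log2 changes were -0.48 for Per1, -0.78 for Per2, -0.17 for Per3, -0.39 for Cry1, -0.36 for Cry2, -0.0768 for Nr1d1, -0.12 for Nr1d2 and -0.27 for Dbp, because Arntl differed more than Clock. With the length of the longest transcript, mean levels in CPM per kilobase were 8.93 for Arntl, 21.2 for Clock, 9.39 for Per1, 4.82 for Per3, 8.65 for Cry2, 38.2 for Nr1d1, 50.0 for Nr1d2 and 48.2 for Dbp. No paired analysis was possible because there was only 1 library of each genotype, and for the same reason none could be left out.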
